A study of Bos taurus with 48 samples.

Results

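The genes described here are the interleukins, their receptors, tumour necrosis factor (TNF), its ligand and receptor superfamilies, and the lymphotoxins LTA and LTB. They were found by symbol in the annotation of the array, which gave 70 of 19801 genes, on 73 probes. The same rule left out 10 probes of the family, those of IL1A, IL1B, IL1RN, IL1R1, IL7, IL7R, IL15, IL18, IL18BP and TNFSF10. By role, the 70 genes are 10 ligands and 13 receptors of the TNF superfamily, 17 interleukin or chemokine ligands, 29 interleukin receptors, and the enzyme IL4I1, whose name only recalls the cytokine that induces it.

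The samples came from 22 lactating dairy cows with synchronised cycles, 12 of which were pregnant from a blastocyst transferred on day 7 and 10 of which were cyclic. From each cow the caruncular and the intercaruncular endometrium were taken at slaughter on day 17, the 2 kinds of uterine lining that do and do not later form placental attachments. Among the pregnant cows 7 carried a large embryo (above 75 mg) and 5 a small one (below 40 mg), with a length of 20 cm as the second limit, and 6 were labelled fertile and 6 sub-fertile. Embryo size and fertility class crossed, with 3 fertile and 4 sub-fertile cows among the large and 3 and 2 among the small. The 44 samples were each hybridised in red against a green pool of all of them, and a value below is the log2 ratio of sample to pool. The median share of spots well above background was 71.5% in caruncular samples of pregnant and 71.7% of cyclic cows, and 72.6% and 70.0% in the intercaruncular ones. Cows are named by letters, A to V, in the order of their numbers in the labels.

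Interleukins and ligands of the TNF superfamily are signalling proteins by which leukocytes, epithelium and stroma instruct each other, and each acts through receptors that join into complexes, often with a shared chain. Receptors of the TNF superfamily signal through adaptor proteins either to the transcription factor NF-kappaB or, where they carry a death domain, to caspases. In ruminants the elongating conceptus secretes interferon tau before it attaches, and the endometrium, which already holds macrophages, NK cells and lymphocytes, answers with a broad interferon response.

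Of the 70 genes, 36 gave a signal well above background in all 44 samples, 30 in 1 to 43 samples, and 4 in none (IL3, IL5, IL13 and IL18R1). A gene was tested when its brightest probe found by the rule was well above background, with a signal of at least 80 units, in at least 22 samples. That held for 41 genes and not for 29. The roles differed in this respect. Of the TNF superfamily, 8 of 10 ligands and 12 of 13 receptors were tested, against 15 of 29 interleukin receptors and 5 of 17 interleukin or chemokine ligands. The 5 were IL6, IL10, IL12A, IL16 and IL17D. Of the genes not tested, 13 were well above background in 5 samples or fewer, among them IL4, IL17A, IL17F, IL21 and IL22. For most of the T cell cytokines the array therefore gives no change in either direction.

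**Figure D1:**
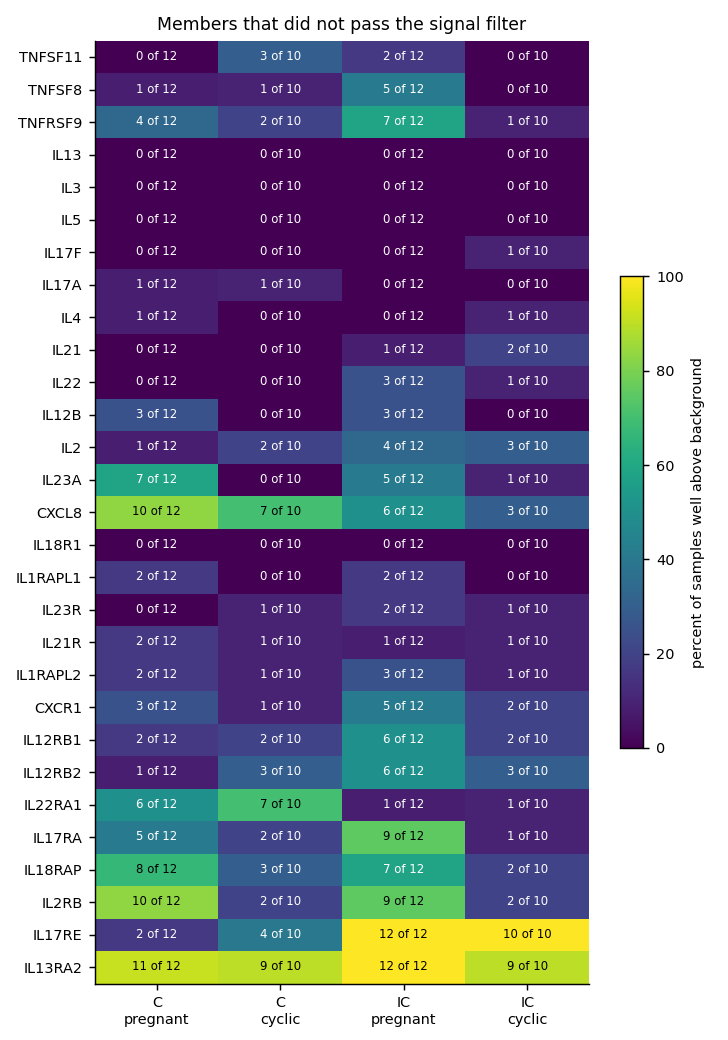
The 29 genes that were not tested, with the share of samples in each group whose signal was well above background. IL17RE was so in 22 of 22 intercaruncular and 6 of 22 caruncular samples.

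Pregnant and cyclic cows were compared within each tissue by limma, a linear model with moderated variances, with p adjusted by the method of Benjamini and Hochberg across every tested probe. To pass, a gene needed a 1.5-fold change or more and, after adjustment, a p under 0.05. In caruncular tissue 4 of the 41 genes passed, TNFSF13B, CD40, TNF and FAS, all higher in pregnant cows. That is 9.76% of them, against 10% of all probes tested. In intercaruncular tissue 3 passed, the same genes without TNF, which is 7.32% against 7.28% of all probes. The family as a whole thus passed about as often as the rest of the array. The median over its 41 genes was 0.04 in caruncular tissue, where all probes gave -0.04, and -0.04 in intercaruncular tissue, where all probes gave -0.01. Without the limit on size, 12 genes had an adjusted p below 0.05 in caruncular tissue, 10 of them higher, which is 29.3% against 26.9% of all probes. The intercaruncular number was 6, with 3 of them higher, or 14.6% against 20.3%. All genes that passed on probes of the rule belong to the TNF superfamily. On such probes none of the 20 interleukin ligands and receptors tested passed. A second probe of IL13RA1, outside the rule, did pass and is given below. The roles were not tested against each other.

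**Figure D2:**
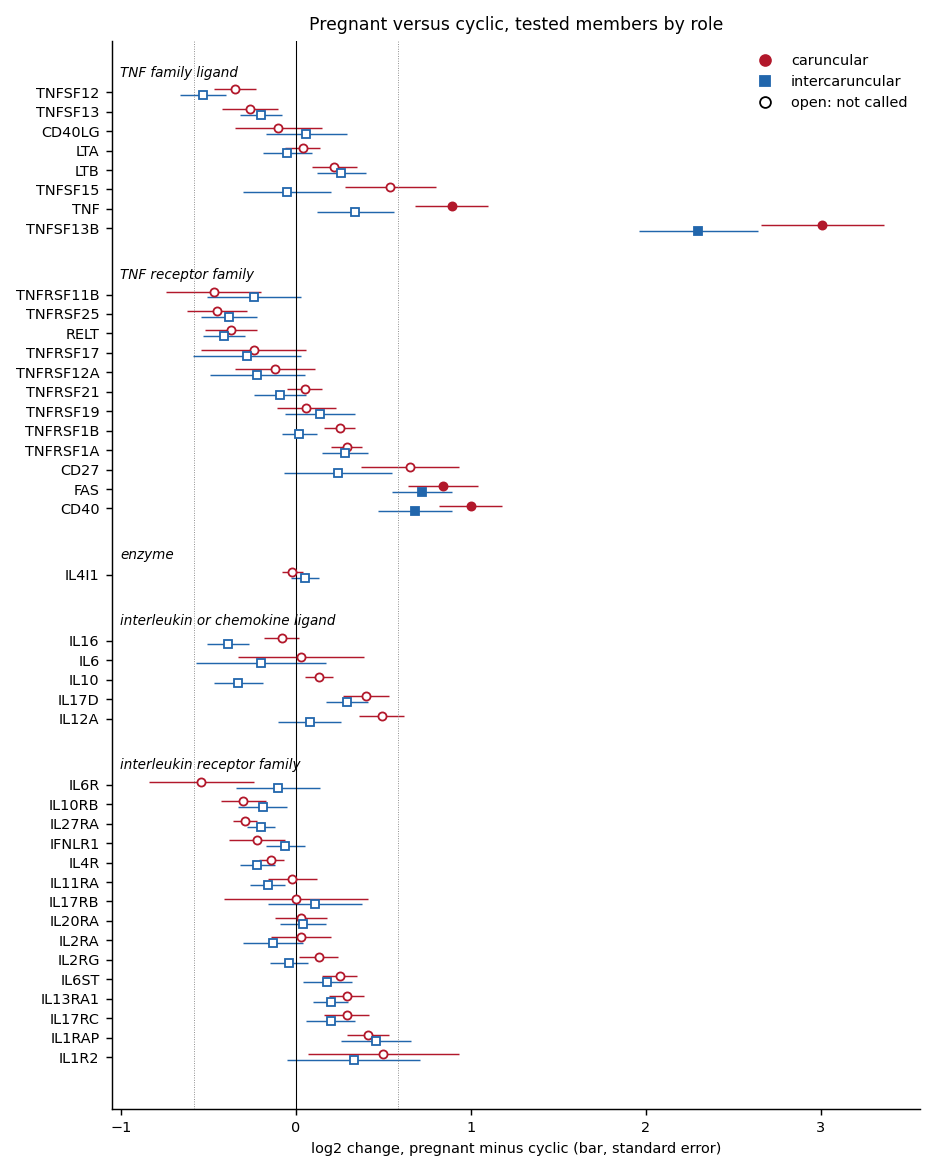
Change in pregnant against cyclic cows for the 41 genes tested, by role, in both tissues, with standard errors, filled symbols for genes that passed and dotted lines at 1.5-fold. The largest was TNFSF13B, at 3.01 in caruncular and 2.30 in intercaruncular tissue.

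TNFSF13B encodes the B cell activating factor (BAFF), a ligand made by myeloid and stromal cells that keeps B cells alive. In caruncular tissue its log2 ratio ran from -1.01 through a median of 0.45 to 1.88 in pregnant cows, and from -3.11 through -2.75 to -1.04 in cyclic cows. All 12 pregnant cows lay above all 10 cyclic cows, the highest of which nearly met the lowest pregnant cow. TNFSF13B rose by 3.01 (standard error 0.35), or 8.04-fold, with an adjusted p of 1.46e-06. Over 15 other ways to compute this the adjusted p ran from 9.9e-09 to 0.3, the last with slide as a fixed term, and reached no more than 2.37e-05 without that fit and the fit to the last scan day alone. Intercaruncular values ran from -1.53 through -0.31 to 1.63 in pregnant and from -2.76 through -2.48 to -1.23 in cyclic cows. Here 11 of 12 pregnant cows were above every cyclic cow, so the groups met at 1 cow. The rise was 2.30 (standard error 0.34), or 4.92-fold, with an adjusted p of 5.95e-05, above the cyclic mean in 12 of 12 cows. Its alternatives ranged from 5.99e-06 to 0.696, again highest with slide as a fixed term, and up to 0.00252 otherwise.

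The closest relative of BAFF is TNFSF13 (APRIL), which shares receptors with it on B and plasma cells. TNFSF13 ran from -0.46 through 0.11 to 0.91 in caruncular tissue of pregnant cows and from 0.10 through 0.31 to 0.96 in cyclic cows. It did not follow BAFF: the difference was -0.26 (adjusted p 0.227, below the cyclic mean in 8 of 12 cows) in caruncular and -0.20 (adjusted p 0.27, 9 of 12) in intercaruncular tissue. Of their receptors, TNFRSF13C (the BAFF receptor) carries a symbol outside the rule on this array and differed by -0.22 (adjusted p 0.572, below the mean in 9 of 12 cows) and -0.21 (adjusted p 0.57, 8 of 12). The probe named TNFRSF17 (the plasma cell receptor BCMA) differed by -0.24 (adjusted p 0.581, 10 of 12) and -0.28 (adjusted p 0.56, 8 of 12), but the gene number given for that probe names SNX29, so the value may belong to either gene. TNFRSF13B (TACI) was well above background in 2 of 12 pregnant and 4 of 10 cyclic caruncular samples, and in 9 of 12 and 4 of 10 intercaruncular samples, too few to be tested. Thus the ligand BAFF rose and no receptor of it passed.

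TNF, the founding ligand, made chiefly by macrophages, ran from -0.47 through 0.22 to 0.93 in caruncular tissue of pregnant cows and from -1.76 through -0.64 to 0.27 in cyclic cows. The groups overlapped, with 6 of 12 pregnant cows above every cyclic cow. TNF was well above background in 12 of 12 pregnant and only 6 of 10 cyclic caruncular samples, so the size of its change is uncertain. It rose by 0.89 (standard error 0.21), with an adjusted p of 0.00404 and 12 of 12 pregnant cows above the cyclic mean. Its alternatives ranged from 0.00223 to 0.779, or to 0.0367 without the fixed slide term and without the fit to the last scan day alone. In intercaruncular tissue the values overlapped throughout, from -0.97 through 0.36 to 1.34 in pregnant and from -0.53 through 0.09 to 0.89 in cyclic cows. The difference there was 0.34 (adjusted p 0.274, 10 of 12 above the mean) and did not pass. A test of whether pregnancy acted differently in the 2 tissues did not pass either, at 0.54 (adjusted p 0.183, in the direction of the effect in 11 of 12 cows). With normexp and loess the caruncular rise was 0.51, under 1.5-fold, so that TNF no longer passed. A second, dimmer TNF probe was well above background in 5 of 12 pregnant and 4 of 10 cyclic caruncular samples, and in 5 of 12 and 0 of 10 intercaruncular ones, too few for a fold.

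Of the other TNF ligands that the rule took, only TNFSF12 (TWEAK) had an adjusted p under 0.05, and it was lower in pregnant cows. The FAS ligand, outside the rule, is given below. TNFSF12 changed by -0.35 (adjusted p 0.0416, below the cyclic mean in 10 of 12 cows) in caruncular and -0.53 (adjusted p 0.00709, 12 of 12) in intercaruncular tissue, under the 1.5-fold limit in both. TNFSF15 (TL1A) differed by 0.54 (adjusted p 0.13, above the mean in 9 of 12) and -0.05 (adjusted p 0.908, below it in 6 of 12). LTB, which forms the membrane lymphotoxin with LTA, differed by 0.22 (adjusted p 0.215, 11 of 12) and 0.26 (adjusted p 0.189, 10 of 12). LTA differed by 0.04 (adjusted p 0.812, 6 of 12) and -0.05 (adjusted p 0.852, 5 of 12). TNFSF11 (RANKL) was well above background in 3 of 10 cyclic and 0 of 12 pregnant caruncular samples. Set against the background of the pregnant samples, its mean signal over the 13 cyclic caruncular arrays, repeat arrays included, gave a bound of 1.21-fold. Only 3 of these arrays were well above background, so the bound is rough. The median log2 ratio was 0.00 in cyclic and -0.21 in pregnant caruncular samples, and cow L stood far above its group at 2.85. In intercaruncular tissue detection went the other way, with 2 of 12 pregnant and 0 of 10 cyclic samples. The mean log2 signal did not, at 6.81 in pregnant and 6.94 in cyclic arrays, and the bound was under 1. A second probe of TNFSF11 was well above background in no sample, and neither was TNFRSF11A (RANK), the receptor of that ligand. Of the 8 ligands tested here, only BAFF and, in caruncular tissue, TNF met both limits.

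**Figure D3:**
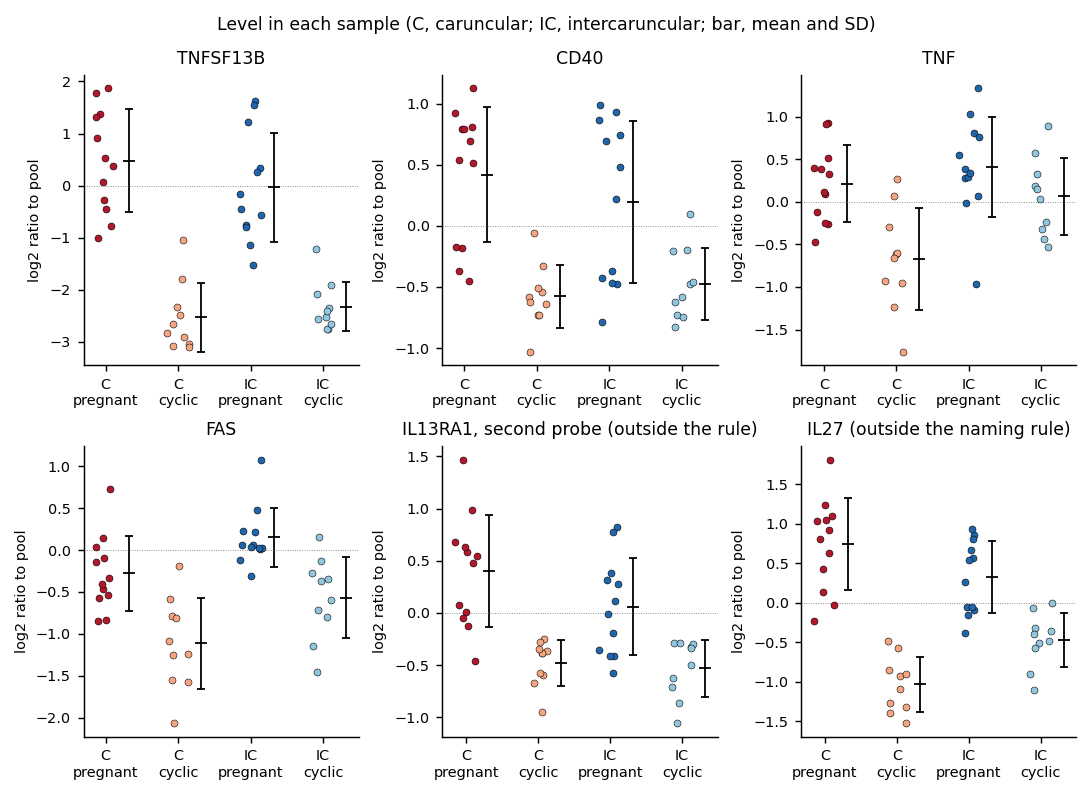
Log2 ratio in each cow for TNFSF13B, CD40, TNF, FAS, the second IL13RA1 probe and IL27. TNFSF13B separated all 12 pregnant from all 10 cyclic cows in caruncular tissue. IL27 was well above background in only 5 of 10 caruncular and 4 of 10 intercaruncular samples of cyclic cows.

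CD40, a receptor of antigen-presenting cells that T cells engage with CD40LG, ran from -0.45 through 0.62 to 1.13 in caruncular tissue of pregnant and from -1.03 through -0.60 to -0.06 in cyclic cows. A few pregnant cows lay among the cyclic ones, and 8 of 12 lay above all of them. CD40 rose by 1.00 (standard error 0.18), or 1.99-fold, with an adjusted p of 0.000408 and 12 of 12 cows above the cyclic mean. The alternatives ranged from 0.00027 to 0.503. In intercaruncular tissue it ran from -0.79 through 0.35 to 0.99 in pregnant and from -0.83 through -0.53 to 0.10 in cyclic cows, with 7 of 12 pregnant cows above all cyclic cows. The rise was 0.68 (standard error 0.21, adjusted p 0.0295), with 10 of 12 above the mean. Here the alternatives ranged from 0.0138 to 0.408, and the slide as a random block gave 0.1. CD40LG itself differed by -0.10 (adjusted p 0.803, 7 of 12) in caruncular tissue and 0.06 (adjusted p 0.889, 7 of 12) in the other, so the receptor changed and its ligand did not pass.

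FAS, the death receptor bound by FAS ligand, ran from -0.85 through -0.36 to 0.73 in caruncular tissue of pregnant and from -2.07 through -1.17 to -0.19 in cyclic cows. The groups overlapped, and 5 of 12 pregnant cows were above every cyclic cow. FAS rose by 0.84 (standard error 0.20, 1.79-fold, adjusted p 0.00406), with 12 of 12 above the cyclic mean. Its alternatives ranged from 0.000886 to 0.557. The intercaruncular values were -0.31 through 0.05 to 1.08 in pregnant and -1.45 through -0.49 to 0.15 in cyclic cows. There the rise was 0.72 (standard error 0.17, 1.64-fold, adjusted p 0.00496), again with 12 of 12 above the mean and alternatives from 0.00384 to 0.94. FAS was thus higher in both tissues, with overlap in both. With slide as a random term the intercaruncular rise did not pass (adjusted p 0.103), and with slide as a fixed term it was only 0.14.

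Both receptors of TNF were slightly higher in caruncular tissue. TNFRSF1A, which carries a death domain and is present on most cells, was higher by 0.29 (adjusted p 0.0191, above the mean in 11 of 12 cows), and TNFRSF1B, mostly of leukocytes, by 0.25 (adjusted p 0.0378, 12 of 12). In intercaruncular tissue the differences were 0.28 (adjusted p 0.145, 10 of 12) and 0.02 (adjusted p 0.9, 6 of 12). RELT, an orphan receptor, was lower by 0.41 (adjusted p 0.0218, 12 of 12) in intercaruncular and by 0.37 (adjusted p 0.067, 12 of 12) in caruncular tissue. None of these reached 1.5-fold. TNFRSF11B (osteoprotegerin, a soluble decoy of RANKL) differed by -0.47 (adjusted p 0.207, below the mean in 9 of 12) and -0.24 (adjusted p 0.571, 8 of 12).

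The TNF ligands and receptors that did not pass overlapped between pregnant and cyclic cows in both tissues. LTA ran from -0.45 through 0.02 to 0.35 in caruncular tissue of pregnant cows and from -0.37 through -0.10 to 0.34 in that of cyclic cows, and in intercaruncular tissue from -0.32 through 0.32 to 1.06 and from -0.01 through 0.31 to 0.78. For LTB the caruncular values went from -0.38 through -0.01 to 0.40 in pregnant and from -0.83 through -0.24 to 0.31 in cyclic cows, the intercaruncular ones from -0.47 through 0.23 to 0.49 and from -0.79 through -0.11 to 0.54. The values of TNFSF12 were -0.79 through -0.27 to 0.08 in caruncular tissue of pregnant and -0.41 through 0.13 to 0.53 of cyclic cows, against -0.86 through -0.13 to 0.29 and -0.09 through 0.42 to 0.72 in intercaruncular tissue. These 3 ligands shared part of their range between the states. TNFRSF1A ran from -0.28 through 0.04 to 0.36 in caruncular tissue of pregnant cows and from -0.76 through -0.21 to -0.05 in that of cyclic cows, and in intercaruncular tissue from -0.62 through -0.36 to 0.41 and from -1.15 through -0.57 to -0.11. For TNFRSF1B the caruncular values went from -0.10 through 0.16 to 0.36 in pregnant and from -0.40 through -0.12 to 0.33 in cyclic cows, the intercaruncular ones from -0.24 through 0.02 to 0.49 and from -0.39 through 0.02 to 0.33. The values of TNFRSF11B were -0.97 through 0.13 to 1.40 in caruncular tissue of pregnant and -0.34 through 0.48 to 1.82 of cyclic cows, against -1.09 through -0.21 to 1.65 and -0.71 through 0.12 to 1.36 in intercaruncular tissue. Here too the states shared part of the range. TNFRSF13C ran from -1.29 through -0.62 to 0.70 in caruncular tissue of pregnant cows and from -1.20 through -0.48 to 1.29 in that of cyclic cows, and in intercaruncular tissue from -1.42 through -0.36 to 0.66 and from -0.88 through 0.13 to 0.96. For TNFRSF17 the caruncular values went from -1.55 through -0.19 to 1.21 in pregnant and from -1.05 through 0.11 to 1.34 in cyclic cows, the intercaruncular ones from -1.36 through -0.26 to 1.80 and from -0.69 through 0.21 to 1.09.

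CD27, the receptor of CD70 on T cells and memory B cells, had the largest difference among the TNF receptors that did not pass, 0.65 in caruncular tissue (standard error 0.28, adjusted p 0.0832, above the cyclic mean in 10 of 12 cows). Its values ran from -0.17 through 0.47 to 2.35 in pregnant and from -0.74 through -0.37 to 1.56 in cyclic cows, so that single cows in both groups were far above the rest. The array lists this gene as TNFRSF7, and its probe is shown with 2 others whose symbols on the array are not those of the gene. The others are the second probe of IL13RA1 and the probe of IL27. Both have a number for a predicted gene as their symbol, and the interleukin is named only in their descriptions. Each is 60 bases long.
CD27: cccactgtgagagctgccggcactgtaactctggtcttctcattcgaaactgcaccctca
IL13RA1: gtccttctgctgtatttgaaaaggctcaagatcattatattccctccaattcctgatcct
IL27: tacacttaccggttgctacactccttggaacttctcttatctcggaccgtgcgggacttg

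Among the interleukin ligands that the rule took, no tested gene passed for pregnancy. IL33, outside the rule, is given below. IL12A, the smaller chain of interleukin 12, was higher by 0.49 in caruncular tissue (adjusted p 0.00695, above the mean in 11 of 12 cows), which is 1.41-fold. IL17D was higher by 0.40 (adjusted p 0.0275, 11 of 12) in caruncular and 0.29 (adjusted p 0.085, 12 of 12) in intercaruncular tissue. IL16, a chemoattractant of CD4 cells, was lower by 0.39 (adjusted p 0.0229, 12 of 12) in intercaruncular tissue. IL6 spread widely in every group, from -1.88 to 0.91 in caruncular tissue of pregnant cows and from -2.14 to 0.71 in cyclic cows, with medians of -0.23 and -0.40. Its difference was 0.03 (adjusted p 0.952, 7 of 12) and, in intercaruncular tissue, -0.20 (adjusted p 0.745, 8 of 12). IL10, which restrains macrophages and T cells, differed by 0.13 (adjusted p 0.2, 9 of 12) and -0.33 (adjusted p 0.0952, below the mean in 11 of 12, with 1 cyclic cow's value left out as an outlying spot).

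Some dim ligands and receptors were detected mainly in pregnant cows. IL2RB, the beta chain through which interleukins 2 and 15 signal, was well above background in 10 of 12 pregnant against 2 of 10 cyclic caruncular samples, and in 9 of 12 against 2 of 10 intercaruncular samples. With so few cyclic samples above background no fold is given. The probe named IL23A was well above background in 7 of 12 pregnant and 0 of 10 cyclic caruncular samples, and the mean signal in pregnant caruncular arrays was at least 1.57-fold that of the cyclic ones. The gene number of that probe names STAT2, so which transcript it measures cannot be told. IL12B, the larger chain of interleukins 12 and 23, was so in 3 of 12 against 0 of 10 caruncular samples, a bound of 1.3-fold. In intercaruncular tissue its counts were the same and the bound was 1.03-fold. TNFSF8 was detected in 5 of 12 pregnant and 0 of 10 cyclic intercaruncular samples, with mean log2 ratios of 0.00 and 0.06, so no bound is given. For IL17F, IL21, IL22, IL23R, IL4, IL17A and IL1RAPL1, also detected in 1 group and not in another, no bound was above 1.18-fold. Caruncular bounds count repeat arrays as well, and all of them take in arrays not above background, so they too are rough.

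IL27 pairs with EBI3 to form interleukin 27, a product of activated antigen-presenting cells. The array lists it under a predicted gene, so the rule did not take it, and it is given because it was on the list of genes to describe. It ran from -0.23 through 0.86 to 1.81 in caruncular tissue of pregnant cows and from -1.53 through -1.01 to -0.49 in cyclic cows. In intercaruncular tissue it ran from -0.38 through 0.40 to 0.93 and from -1.11 through -0.44 to 0.00. Its signal was well above background in all pregnant samples of both tissues but in only 5 of 10 caruncular and 4 of 10 intercaruncular samples of cyclic cows. With so many cyclic samples not above background, no change or p is given for it, and what the values show is that it was detected more often in pregnant cows. Of the chains around it, IL27RA, its own receptor, was lower by 0.29 in caruncular tissue (adjusted p 0.00604, below the mean in 12 of 12 cows), under the limit on size, and EBI3 differed by 0.33 (adjusted p 0.0979, 10 of 12) and -0.10 (adjusted p 0.596, 8 of 12).

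IL33, an alarmin of stroma and endothelium that the array lists under another name, was the gene of the described list that fell. It ran from -2.01 through -0.85 to 0.25 in caruncular tissue of pregnant and from -0.74 through 0.05 to 1.20 in cyclic cows, of which cow L stood alone at the top. IL33 fell by 0.83 (standard error 0.25, adjusted p 0.0155), below the cyclic mean in 10 of 12 cows. The intercaruncular difference was -0.50 (adjusted p 0.0587, 11 of 12) and did not pass, and the interaction of -0.33 (adjusted p 0.403, 9 of 12) did not pass either. IL10RA was well above background in at most 2 samples of any group and was not tested.

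IL13RA1 binds interleukin 13 and joins IL4R to form the receptor of interleukins 4 and 13. Its 2 probes gave different sizes. The member probe ran from -0.62 through -0.02 to 0.51 in caruncular tissue of pregnant and from -0.52 through -0.27 to -0.17 in cyclic cows, and was higher by 0.29 (adjusted p 0.0441, 10 of 12). The second probe, whose sequence is above, ran from -0.46 through 0.52 to 1.47 and from -0.95 through -0.38 to -0.25. It put 11 of 12 pregnant cows above every cyclic cow and rose by 0.88 (standard error 0.17, adjusted p 0.00077, 12 of 12), with alternatives from 0.000125 to 0.727. In intercaruncular tissue the changes were 0.20 (adjusted p 0.149, 10 of 12) on the member probe and 0.59 (adjusted p 0.0126, 11 of 12, alternatives from 0.01 to 0.524) on the second. That intercaruncular result did not pass with normexp and loess, at 0.52 and so under 1.5-fold, nor with slide as a random term, at an adjusted p of 0.0667. The direction was shared by the probes and the size was not. IL4R, the partner chain, differed by -0.14 (adjusted p 0.152, 11 of 12) and -0.22 (adjusted p 0.116, 11 of 12).

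None of the other interleukin receptors tested passed for pregnancy. IL1R2 differed by 0.50 (adjusted p 0.401, 7 of 12) in caruncular and 0.33 (adjusted p 0.576, 7 of 12) in intercaruncular tissue. IL1RAP, the accessory chain of the interleukin 1 and 33 receptors, was higher by 0.41 in caruncular (adjusted p 0.0178, 11 of 12) and 0.46 in intercaruncular tissue (adjusted p 0.0986, 12 of 12). IL6ST, the signalling chain gp130 shared by the interleukin 6 family, was higher by 0.25 (adjusted p 0.0562, 11 of 12) and 0.18 (adjusted p 0.368, 9 of 12). IL6R, the chain that binds interleukin 6 itself, differed by -0.54 (adjusted p 0.189, 9 of 12) and -0.10 (adjusted p 0.804, 6 of 12). The shared chain IL2RG differed by 0.13 (adjusted p 0.408, 9 of 12) and -0.04 (adjusted p 0.852, 3 of 12). IL10RB, shared by the interleukin 10 family, differed by -0.30 (adjusted p 0.102, 10 of 12) and -0.19 (adjusted p 0.374, 10 of 12). IL17RA had 2 probes, a dim member probe that was not tested and a brighter one outside the rule, which differed by -0.15 (adjusted p 0.149, 10 of 12) and -0.06 (adjusted p 0.655, 7 of 12). The 15 interleukin receptors tested had a median change of 0.03 in caruncular tissue, and of -0.04 in the other.

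Interleukin genes of the described list that did not pass for pregnancy overlapped between the states as well. IL10 ran from 0.09 through 0.26 to 0.47 in caruncular tissue of pregnant cows and from -0.10 through 0.11 to 0.70 in that of cyclic cows, and in intercaruncular tissue from 0.11 through 0.47 to 0.84 and from 0.19 through 0.67 to 1.52. For IL6ST the caruncular values went from -0.21 through 0.08 to 0.45 in pregnant and from -0.42 through -0.25 to 0.33 in cyclic cows, the intercaruncular ones from -0.65 through -0.07 to 0.45 and from -0.70 through -0.35 to 0.32. The values of IL6R were -2.09 through -1.03 to 0.58 in caruncular tissue of pregnant and -2.00 through -0.41 to 0.48 of cyclic cows, against -1.22 through -0.14 to 1.08 and -0.75 through -0.20 to 1.18 in intercaruncular tissue. The spread of IL6R was the widest of these 3. IL10RB ran from -0.69 through -0.11 to 0.44 in caruncular tissue of pregnant cows and from -0.59 through 0.34 to 0.52 in that of cyclic cows, and in intercaruncular tissue from -0.92 through -0.18 to 0.61 and from -0.38 through 0.15 to 0.29. For IL2RG the caruncular values went from -0.06 through 0.16 to 0.69 in pregnant and from -0.26 through 0.04 to 0.75 in cyclic cows, the intercaruncular ones from -0.11 through 0.53 to 0.81 and from 0.05 through 0.45 to 0.95. The values of IL4R were -0.42 through -0.23 to 0.05 in caruncular tissue of pregnant and -0.30 through -0.10 to 0.28 of cyclic cows, against -0.40 through 0.15 to 0.41 and -0.15 through 0.31 to 0.67 in intercaruncular tissue. All 3 of these chains stayed within 1 log2 unit of the pool in every group. IL2RB ran from -0.85 through 0.40 to 0.99 in caruncular tissue of pregnant cows and from -1.46 through -0.80 to 0.14 in that of cyclic cows, and in intercaruncular tissue from -1.24 through 0.02 to 1.27 and from -1.17 through -0.56 to -0.11. For CXCL8 the caruncular values went from -1.39 through 0.71 to 1.48 in pregnant and from -1.09 through -0.07 to 2.17 in cyclic cows, the intercaruncular ones from -1.87 through -0.35 to 0.56 and from -1.46 through -0.71 to 1.46. The values of the brighter IL17RA probe were -0.67 through -0.31 to -0.01 in caruncular tissue of pregnant and -0.40 through -0.15 to 0.06 of cyclic cows, against -0.51 through -0.01 to 0.21 and -0.49 through 0.09 to 0.28 in intercaruncular tissue. CXCL8 and IL2RB are read from dim signals. CXCL8 was well above background in 10 of 12 pregnant and 7 of 10 cyclic caruncular samples, and in 6 of 12 and 3 of 10 intercaruncular samples.

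Most slides held 4 arrays of 1 state, so slide and pregnancy cannot be told apart for most cows. A fit with slide as a fixed term rests, in each tissue, on 1 slide with 3 pregnant cows and a single cyclic cow. In it none of the 41 genes passed in limma in either tissue. At an unadjusted p under 0.05 there were 6 in each, and over all probes 58 and 129 passed. TNFSF13B, CD40, TNF and FAS kept their direction. TNFSF13B was at 2.40 (standard error 0.82) in caruncular and 0.89 (standard error 0.70) in intercaruncular tissue, CD40 at 0.93 and 0.90, FAS at 1.17 and 0.14, and TNF in caruncular tissue at 0.64. The intercaruncular values of TNFSF13B and FAS were thus well below those of the fit without slides. Of the genes with an adjusted p under 0.05 but less than 1.5-fold, TNFSF12 in intercaruncular tissue (0.09 against -0.53) and TNFRSF1B in caruncular tissue (-0.30 against 0.25) changed sign. On a later slide, which adds nothing to that fit and held repeat arrays too, with 2 pregnant cows and 1 cyclic cow, caruncular TNFSF13B was higher by 3.69, TNF by 1.67, CD40 by 1.04 and FAS by 0.31. With the slide as a random block 4 genes passed in caruncular tissue and 1, TNFSF13B, in intercaruncular tissue, at 2.06 (adjusted p 0.00252).

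Whether pregnancy acted differently in the 2 tissues was tested on the caruncular minus intercaruncular value of each cow, pregnant against cyclic. No gene of the 41 passed at an adjusted p under 0.05 in limma, against 1.03% of all probes, and 9 had an unadjusted p under 0.05, as did 17.3% of all probes. All 9 had positive values, that is, a higher pregnant against cyclic difference in caruncular tissue. The closest was TNFSF13B, at 0.71 (adjusted p 0.0952, in that direction in 12 of 12 cows). It passed at 0.77 (adjusted p 0.0472) when the background was corrected by another method. IL10 at 0.45 (adjusted p 0.146) and TNFSF15 at 0.59 (adjusted p 0.127) also had 12 of 12 pregnant cows above the cyclic mean. IL27, outside the rule, was well above background in only 5 of 10 caruncular and 4 of 10 intercaruncular samples of cyclic cows. No value is therefore given for it here.

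Caruncular and intercaruncular tissue of the same cow were compared within each state at 1.5-fold and an adjusted p under 0.05. In cyclic cows 6 genes passed, 1 higher and 5 lower in caruncular tissue, which is 14.6% against 13.2% of all probes. In pregnant cows 3 passed, 1 higher and 2 lower, which is 7.32% against 17.7%. The scan day split almost as the tissues did, so that the 2 cannot be told apart in most cows. Only cows R (cyclic) and S (pregnant) had both tissues on 1 slide, and their values are given beside the genes that passed.

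IL1RAP was the gene that was higher in caruncular tissue. Within cows its difference ran from -0.22 through 1.24 to 1.60 in cyclic and from -0.20 through 1.10 to 1.53 in pregnant cows. The mean was 1.04 (standard error 0.19, adjusted p 0.000892, higher in 8 of 10, alternatives from 0.000693 to 0.00249) and 0.99 (standard error 0.12, adjusted p 1.38e-05, 11 of 12, alternatives from 1.73e-06 to 4.3e-05). The 2 cows with both tissues on 1 slide went the other way, at -0.16 in cow R and -0.20 in cow S. Cow V, with its tissues on different slides, was also lower in caruncular tissue, at -0.22. The other cows, on which the result rests, had their tissues scanned on different days.

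IL20RA, a receptor chain for the epithelial cytokines interleukin 20 and 24, was lower in caruncular tissue in every cow. The difference ran from -0.97 through -0.55 to -0.31 in cyclic and from -1.01 through -0.64 to -0.02 in pregnant cows. The mean was -0.59 (standard error 0.07, adjusted p 0.00013, 10 of 10, alternatives from 0.000102 to 0.00665) and -0.60 (standard error 0.08, adjusted p 1.56e-05, 12 of 12, alternatives from 1.1e-05 to 0.00032). On 1 slide it was -0.53 in cow R and -0.42 in cow S, so here the cows on 1 slide went with the rest. In cyclic cows it lay close to the limit of 1.5-fold, and was under it at -0.57 with normexp and loess and at -0.58 with the repeat arrays alone. IL6R was lower in caruncular tissue of pregnant cows by 0.82 (standard error 0.19, adjusted p 0.00171, 10 of 12, alternatives from 0.00164 to 0.0168), and by 0.60 in cow S. In cow R it was -2.29. The cyclic cows had a mean difference of -0.38 (adjusted p 0.209, 8 of 10), and the interaction of -0.44 (adjusted p 0.511, 10 of 12) did not pass.

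The other 4 genes passed in cyclic cows only. TNF was lower in caruncular tissue by 0.73 (standard error 0.15, adjusted p 0.00197, 9 of 10, alternatives from 0.00178 to 0.017), but higher by 0.51 in cow R. In cow S, pregnant, it was higher by 0.50. Only 6 of 10 cyclic caruncular samples were well above background for TNF, against 10 of 10 intercaruncular ones, so the size of this difference is uncertain. The second TNF probe was too dim in cyclic cows to compare the tissues. IL1R2, a decoy receptor of interleukin 1, was lower by 0.66 (standard error 0.16, adjusted p 0.00513, 9 of 10, alternatives from 0.00348 to 0.194) by 1.21 in cow R and by 0.74 in cow S. TNFSF15 was lower by 0.64 (standard error 0.16, adjusted p 0.00606, 9 of 10, alternatives from 0.00559 to 0.0967) by 0.77 in cow R and by 0.26 in cow S. IL10 was lower by 0.65 (standard error 0.17, adjusted p 0.00728, 8 of 9 cows, alternatives from 0.00231 to 0.0155), with cow Q left out for an outlying spot, higher by 0.25 in cow R and at 0.00 in cow S. With normexp and loess 3 of these fell under 1.5-fold and no longer passed, TNF at -0.42, TNFSF15 at -0.55 and IL10 at -0.56. Without the pairing by cow IL1R2 and TNFSF15 did not pass, at adjusted p of 0.194 and 0.0967. In pregnant cows the differences were -0.19 for TNF (adjusted p 0.244, 8 of 12), -0.49 for IL1R2 (adjusted p 0.00721, 8 of 12), -0.05 for TNFSF15 (adjusted p 0.713, 8 of 12) and -0.20 for IL10 (adjusted p 0.00416, 11 of 12). None of their interactions passed: 0.54 for TNF (adjusted p 0.183), 0.17 for IL1R2 (adjusted p 0.749), 0.59 for TNFSF15 (adjusted p 0.127) and 0.45 for IL10 (adjusted p 0.146).

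**Figure D4:**
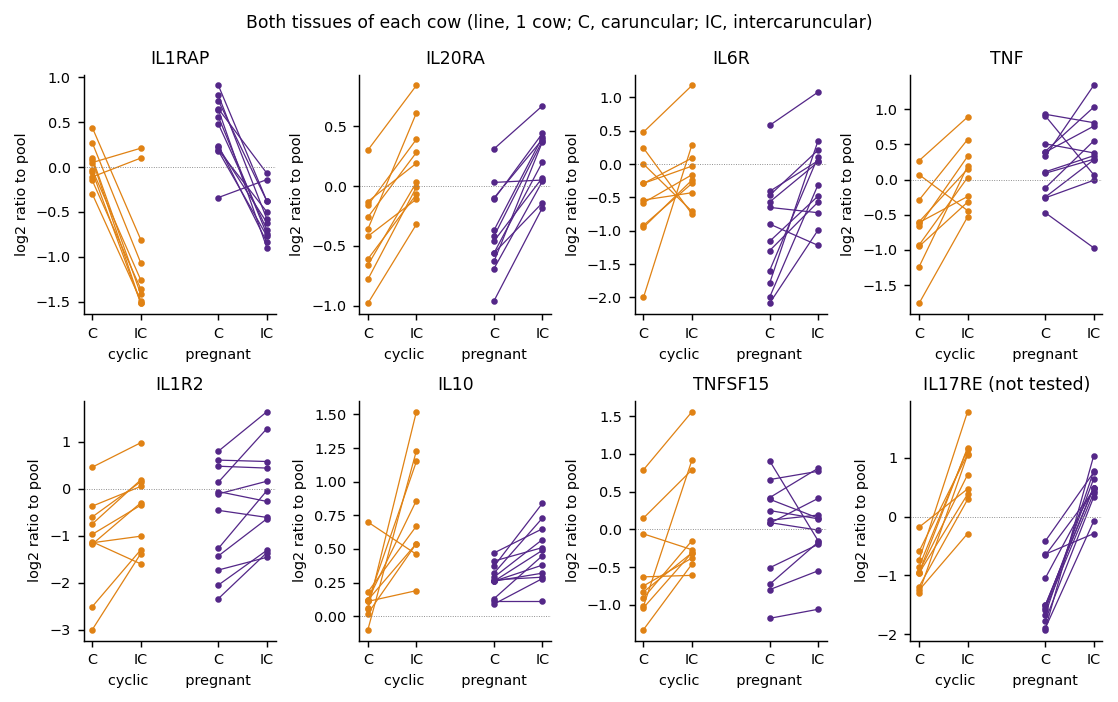
Caruncular and intercaruncular value of each cow for IL1RAP, IL20RA, IL6R, TNF, IL1R2, IL10, TNFSF15 and IL17RE. IL20RA was lower in caruncular tissue in 10 of 10 cyclic and 12 of 12 pregnant cows, and most caruncular values of IL17RE are of signals not above background.

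Detection added a gene to these. IL17RE, the receptor chain by which epithelium answers interleukin 17C, was well above background in 22 of 22 intercaruncular and 6 of 22 caruncular samples, and was not tested since it missed the limit on signal. Since most of its caruncular samples were not above background, no fold is given. IL22RA1 (an epithelial receptor of interleukin 22) went the other way, detected in 13 of 22 caruncular and 2 of 22 intercaruncular samples, and so did CXCL8 (the neutrophil chemokine interleukin 8), in 17 and 9. Without the limit on size, 18 genes had an adjusted p under 0.05 in cyclic cows, 14 of them lower in caruncular tissue, which is 43.9% against 54% of all probes. In pregnant cows it was 17, with 12 of them lower, or 41.5% against 61.4%. The 2 probes of CD40LG differed in sign in cyclic cows, at 0.34 (adjusted p 0.016, 8 of 10) for the member probe and -0.36 (adjusted p 0.00618, 9 of 10) for the other.

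Cows with a large and with a small embryo were compared at an adjusted p under 0.05. In intercaruncular tissue none of the 41 genes passed in limma, against 3.7% of all probes, and 10 had an unadjusted p under 0.05, as did 21.5% of all probes. The closest was TNFRSF12A, the receptor of TWEAK, which ran from -0.95 through 0.15 to 0.45 with a large and from -0.98 through -0.74 to -0.08 with a small embryo. Its difference was 0.74 (standard error 0.23, adjusted p 0.0914, above the mean in 6 of 7 cows). The 1 cow with a large embryo and a low value was cow S, and without it TNFRSF12A passed at 0.91 (adjusted p 0.00491), together with TNFSF15 at 0.73 (adjusted p 0.0362) and TNFRSF25 at -0.63 (adjusted p 0.0402). Without cow M only TNFRSF25, a death receptor bound by TNFSF15, passed, at -0.73 (adjusted p 0.0293). Across the cows left out in turn the count ran from 0 to 3. With all cows TNFSF15 was at 0.59 (adjusted p 0.173, 6 of 7) and TNFRSF25 at -0.56 (adjusted p 0.11, 7 of 7). With slide as a fixed term TNFRSF12A passed at 1.03 (standard error 0.16, adjusted p 0.0132). Cow S was the only pregnant cow on its slide in this tissue, so that fit too takes no account of cow S. The calls thus changed with single cows.

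The second probe of IL13RA1, outside the rule, did pass for embryo size in intercaruncular tissue. It ran from -0.01 through 0.32 to 0.82 with a large and from -0.58 through -0.41 to -0.19 with a small embryo, with no overlap. The difference was 0.77 (standard error 0.15, adjusted p 0.0242, 7 of 7), with alternatives from 0.00716 to 0.0713. Leaving out 1 cow took it above 0.05 in 4 cases, to 0.0532 without cow J, 0.0601 without cow K, 0.0657 without cow B and 0.0713 without cow P. The member probe differed by 0.20 (adjusted p 0.467, 5 of 7). TNFSF13B differed by 0.83 (adjusted p 0.393, 6 of 7), with values from -1.53 to 1.63 among cows with a small embryo. The 1.63 was cow M, far above the next of these cows at -0.76, so the size of this difference depends on that cow. In caruncular tissue no gene passed, against 0% of all probes, and 1 gene, IL6R at -0.99 (adjusted p 0.663, 7 of 7), had an unadjusted p under 0.05 in limma, as did 6.93% of all probes. The median difference over the 41 genes was 0.14 in intercaruncular and -0.02 in caruncular tissue, against -0.01 and 0.01 over all probes.

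No gene passed between fertile and sub-fertile pregnant cows in either tissue in limma. That compares with 0% of all probes in caruncular and 0.0476% in intercaruncular tissue, and 11 and 5 genes had an unadjusted p under 0.05, as did 13.8% and 13.6% of all probes. In caruncular tissue TNFSF13 was the closest, from -0.46 through -0.28 to 0.16 in fertile and from -0.06 through 0.50 to 0.91 in sub-fertile cows. Its difference was -0.66 (standard error 0.17, adjusted p 0.265, below the mean in 6 of 6). BAFF went the other way, at 1.19 (adjusted p 0.291, 5 of 6), with medians of 1.35 and -0.19. IL6 was at 1.02 (adjusted p 0.286, 5 of 6), FAS at 0.60 (adjusted p 0.279, 6 of 6) and TNFRSF12A at 0.75 (adjusted p 0.279, 6 of 6). In intercaruncular tissue the closest was TNFRSF11B, at -1.01 (adjusted p 0.208, 6 of 6). With 6 cows in each class these values describe the cows and no more.

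**Figure D5:**
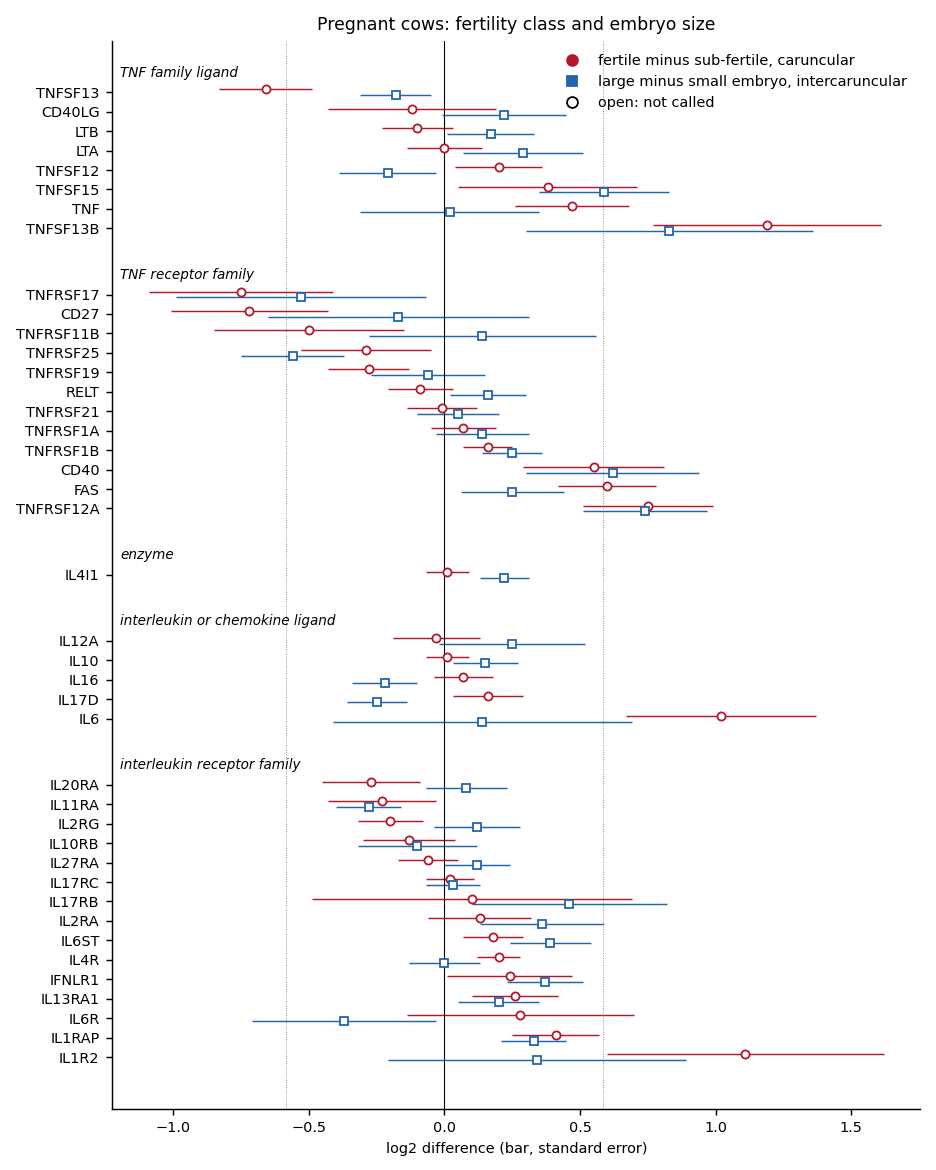
Difference between fertile and sub-fertile cows in caruncular tissue and between large and small embryos in intercaruncular tissue for the 41 genes, with standard errors and dotted lines at 1.5-fold. None passed in either, and TNFSF13B had the largest value in both, at 1.19 and 0.83.

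The family has further members under other symbols and a shared machinery within the cell. Of 12 genes of the TNF superfamily with symbols of another form, 10 were tested, 5 of them members already described. In caruncular tissue 3 of the 10 passed, where 10% of all probes did, and CD40 and FAS, counted above, were among the 3. The other was the FAS ligand FASLG, which rose by 0.91 (adjusted p 7.26e-05, 12 of 12). In intercaruncular tissue CD40 and FAS passed, where 7.28% of all probes did. FASLG was well above background in all pregnant samples, but in 9 of 10 caruncular and only 5 of 10 intercaruncular samples of cyclic cows. Its intercaruncular call is therefore not counted and no change is given. EDA, of the same list, passed the interaction at -0.36 (standard error 0.08, adjusted p 0.0392), with -0.15 in caruncular tissue (below the mean in 9 of 12) and 0.22 in intercaruncular tissue (above it in 10 of 12), neither of which passed. Of 32 tested genes for adaptors of TNF receptors and NF-kappaB, 3 rose in caruncular tissue, 2 rose in intercaruncular tissue and none fell, where 10% and 7.28% of all probes passed. They were CASP8, at 1.24 (adjusted p 0.00065, 12 of 12) and 0.87 (adjusted p 0.00778, 12 of 12), and CFLAR, its inhibitor, at 1.13 (adjusted p 3.18e-05, 12 of 12) and 0.83 (adjusted p 0.0054, 12 of 12). The third, in caruncular tissue, was TNFAIP6 at 0.89 (adjusted p 0.0155, 11 of 12), against 0.42 (adjusted p 0.0922, 10 of 12) in intercaruncular tissue, with an interaction of 0.47 (adjusted p 0.269). The medians of this list were 0.05 and 0.06, and NFKB1 differed by 0.06 and -0.16, RELA by -0.06 and 0.06. This list thus passed no more often than the rest of the array.

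Of 9 tested genes for cytokines and receptor chains that work beside gp130 or with colony-stimulating factors, 1 passed in caruncular and 2 in intercaruncular tissue, where 10% and 7.28% of all probes did. LIFR rose in both tissues, by 0.77 (adjusted p 0.000165, 12 of 12) and 0.87 (adjusted p 0.000183, 12 of 12). CNTFR fell by 0.64 in intercaruncular tissue (adjusted p 0.00281, 12 of 12), against a difference of -0.37 in caruncular tissue (adjusted p 0.131, 10 of 12) and an interaction of 0.27 (adjusted p 0.419). OSMR was higher by 0.46 (adjusted p 0.0155, 11 of 12) and 0.44 (adjusted p 0.00561, 12 of 12), under the limit on size. The ligands LIF, OSM and CSF3 were well above background in at most 1 sample of any group. There are 54 probes that name an interleukin or TNF in their description without a symbol of the family. Of these 23 were tested, and in caruncular tissue 5 rose and 1 fell, and in intercaruncular tissue 2 rose and 1 fell, where 10% and 7.28% of all probes passed. The 23 include the second IL13RA1 probe and IL27, both described above, so the counts are not of further genes alone. Many cyclic samples of IL27 were not above background, so no change is given for it. The receptor chains LIFR, CNTFR and OSMR were thus measured, while the ligands LIF, OSM and CSF3 were not.

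These are bulk samples, in which fewer cells of a type and less RNA per cell cannot be told apart. Among markers of macrophages and monocytes, 6 of 9 tested rose in caruncular and 4 of 9 in intercaruncular tissue. Of all probes 10% and 7.28% passed there, which is the measure for this and the next marker lists too. Their mean level was 0.30 in pregnant against -0.58 in cyclic cows in caruncular tissue, and 0.10 against -0.56 in intercaruncular tissue. The samples ran from -0.30 to 0.87 against -1.13 to -0.01, and from -0.53 to 0.67 against -0.93 to -0.08. CSF1R was the brightest of them, and ITGAM was too dim to be tested.

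Of 8 tested markers of NK and cytotoxic cells (brightest NKG7) 3 rose in caruncular and 1 in intercaruncular tissue, with means of 0.13 against -0.28 and 0.24 against -0.07. NCR1, which defines NK cells, was well above background in 2 of 12 pregnant and 0 of 10 cyclic caruncular samples. Of 7 markers of all leukocytes (brightest LAPTM5) CD53 rose in both tissues, and the means were 0.24 against -0.24 and 0.10 against -0.24. Of 8 T lymphocyte markers (brightest CD247) none passed, with means of 0.17 against 0.07 and 0.21 against 0.12, and none passed of 6 for B lymphocytes and plasma cells (brightest JCHAIN), at -0.17 against 0.13 and 0.05 against 0.30. Among 5 neutrophil and mast cell markers (brightest S100A12) 1 rose in caruncular tissue, at -0.40 against -0.77 and -0.03 against -0.23, and MPO was well above background in no sample. These lists were not tested against each other.

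Smooth muscle markers (brightest ACTA2) fell, 5 of 7 in each tissue, with means of -0.32 against 0.59 and -0.79 against 0.13. Endothelial markers (brightest VWF) fell in 3 of 7, at -0.26 against 0.32 and -0.20 against 0.34. Of 8 epithelial markers (brightest EPCAM) 3 fell and 1 rose in caruncular and 1 fell and 1 rose in intercaruncular tissue, at -1.07 against -0.43 and -0.01 against 0.05. Of 8 stromal markers (brightest DCN) 1 rose and 1 fell in caruncular and 3 fell in intercaruncular tissue, at 0.67 against 0.81 and -0.15 against 0.27. The part of these cells in the rise of TNFSF13B, CD40, TNF and FAS and in the fall of IL33 was not tested.

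Between the tissues 13.2% of all probes passed in cyclic and 17.7% in pregnant cows. Of 8 epithelial markers 3 were lower in caruncular tissue in cyclic cows, and 7 were lower and 1 higher in pregnant cows. Stroma was higher in 4 of 8 and 6 of 8, and smooth muscle in 2 of 7 and 3 of 7. Their part in the lower IL20RA was not tested. Of 13 conceptus markers on the array only PAG1 was tested, and IFNT2 and PAG11 were well above background in no sample.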

How the data were processed

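The scanner files hold, per the file headers, values made by Agilent Feature Extraction 9.5.3.1. As deposited, each spot has red and green intensity values with the background subtracted and the dyes normalized by LOWESS by the authors' software. The log10 ratio of red to green in these files was made by the authors from those values. The series table holds, as deposited by the authors, log2 ratios of sample to pool with the dyes normalized. It was used only as an alternative. Its lowest correlation with the scanner values of the same array was 0.9815. Per the methods, the authors divided each spot by its control channel and scaled each array to its median before their tests.

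Here the log10 ratio was turned into log2, spots marked as outliers (0.529% of spots) were left out, the spots of a probe were averaged, each array was centred on its median, and the 4 repeat arrays were averaged with their first arrays. The filter kept 14717 of 21475 probes, those with 22 or more of the 44 samples that both reached 80 units and stood well above background. Tests were run in limma 3.58.1 (lmFit and eBayes) under R 4.3.3, with Benjamini-Hochberg adjustment over all tested probes, and summaries and plots used numpy 2.4.6, pandas 2.3.3 and matplotlib 3.10.9 on Python 3.11.15. Pregnancy and tissue needed 1.5-fold and an adjusted p under 0.05, and the interaction, embryo size and fertility needed the adjusted p alone. Tissue and interaction were tested on each cow's difference between tissues. The labels give both tissues of a cow the same number, and in all 22 cows the deviations of the 2 samples from their group means correlated (lowest 0.109, median 0.613), so the cows pair the samples.

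Alternatives were values taken from the series table, normexp background correction (offset 50) before loess, arrays left uncentred, all probes tested, a filter of 33 samples, the first or the repeat array alone, slide as a fixed or random term, scan date as a term, the methods' own test, 1 fit of all samples, tests without the cow pairing, each cow left out for embryo size, values within single slides, other probes of a gene, and, chosen after seeing the data, the last scan day alone. Members were matched by the symbol on the array, and 70 genes were found. Values are given in full for genes that passed in any comparison, genes detected in 1 group and not another, and a list of named cytokines and receptors. The members and all lists were chosen with earlier results of these data known.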

Additional observations from a re-analysis of the deposited data

Results flagged for a closer look

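Samples far from the others of their group were sought in 280 groups of 28 genes. Chance alone would give at most about 1 in 20 groups, or 5 percent, and 24 groups had such a sample, from 8 different cows. The groups overlap, since a pregnant cow counts under embryo size and under fertility, so the 24 are not independent.

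Cow S had the only intercaruncular array of a pregnant cow on its slide and on the last scan day. This cow (pregnant, large embryo, sub-fertile) accounted for 10. It was lowest among cows with a large embryo for CD40, at -0.37 in caruncular and -0.79 in intercaruncular tissue, and for TNFSF15 in caruncular tissue at -0.80. In intercaruncular tissue it was lowest there for TNF at -0.97, IL2RG at -0.10, IL4R at -0.40, LTB at -0.47 and the second IL17RA probe at -0.51. Among sub-fertile cows it was lowest for TNF, at -0.97, and for that IL17RA probe, at -0.51.

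Cow M (pregnant, small embryo, fertile) accounted for 5, all highest among cows with a small embryo in intercaruncular tissue. These were TNFRSF1A at 0.41, CD40 at 0.93, TNF at 1.34, TNFSF13B at 1.63 and IL27 at 0.93.

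Cow P, with a small embryo and fertile, was lowest among fertile cows in caruncular tissue for CD40, at -0.18, and TNFRSF1B, at -0.10, and lowest among cows with a small embryo in intercaruncular tissue for TNFSF15, at -1.06. Cow R (cyclic) was highest for IL10 in caruncular tissue, at 0.70, and lowest for the second IL17RA probe in intercaruncular tissue, at -0.49. Of the other cows, V was highest of the cyclic cows for IL13RA1 in intercaruncular tissue, at 0.08, and L for IL33 in caruncular tissue, at 1.20. Cow E was lowest with a large embryo for TNFRSF17 in caruncular tissue, at -1.23, and cow B lowest of the fertile for IL2RG in intercaruncular tissue, at -0.11. Among these 28 genes IL27 was flagged for a change with pregnancy that differs between the tissues, at 0.98. About 1 in 2 of its cyclic samples were not above background. The 0.98 therefore measures no difference between the tissues and is not counted as a pass. Without the pairing by cow IL27 missed the limit on adjusted p, and TNFSF13B passed the interaction with normexp and loess.

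Limits. The 12 pregnant and 10 cyclic cows lay mostly on different slides, and the tissues mostly on different scan days. The array had no dye swap. The embryo size groups held 7 and 5 cows and the fertility classes 6 each, and the 2 labels crossed with as few as 2 cows in a cell. Of 70 genes 29 were too dim to be tested on probes of the rule, though IL17RA had a brighter probe outside it. RNA was from whole tissue, and protein was not analysed here.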

How the results depend on the processing

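Array medians were already 0, so leaving out the centring changed nothing, and intercaruncular tissue had no repeat arrays to choose from. Alternatives gave 288 values for genes of the rule that passed, for IL27, for the second IL13RA1 probe and for some genes with further probes. Of these values 5 reversed their sign. IL33 and genes of the further lists, such as FASLG, CASP8, CFLAR and LIFR, were not covered. TNFSF12 and TNFRSF1B are not among the 288 either, and with slide as a fixed term they changed sign too, at 0.09 in intercaruncular and -0.30 in caruncular tissue.

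For pregnancy in caruncular tissue 4 genes passed, against 7 with no filter (IL12B, IL23A and IL2RB added, all mostly not above background in cyclic cows), 3 with normexp and loess (without TNF, at 0.51), and 0 in limma both with slide as a fixed term and on the last scan day alone, where 6 and 3 genes had an unadjusted p under 0.05. For intercaruncular tissue 3 passed, against 0 in limma with slide as a fixed term, where 6 had an unadjusted p under 0.05, and 1 with slide as a random term. The interaction gave 0 in limma, with 9 at an unadjusted p under 0.05, and 1 gene, TNFSF13B, with normexp and loess.

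Between tissues in cyclic cows 6 passed, against 2 with normexp and loess (without TNF, TNFSF15, IL10 and IL20RA, all under 1.5-fold), 9 with no filter and 4 without the replicate block of the cow. In pregnant cows 3 passed, against 8 with no filter. For embryo size in intercaruncular tissue the count was 0, with 10 genes at an unadjusted p under 0.05 in limma. It was 1 with slide as a fixed term (TNFRSF12A), and from 0 to 3 as each cow was left out. That slide fit takes no account of cow S, the only pregnant cow on its slide in this tissue. Embryo size in caruncular tissue and fertility in both gave 0 in every alternative. IL27 is not counted in the interaction, since many of its cyclic samples were not above background.

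The reversed values were those of the cyclic cow with both tissues on 1 slide, with IL10 at 0.25, IL1RAP at -0.16 and TNF at 0.51, the pregnant one with IL1RAP at -0.20, and the second TNF probe in cyclic cows at 0.58, which was above background in 0 of 10 intercaruncular samples and so measures no fold.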

Other observations

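Of the 32 tested adaptors 3 passed between the tissues in cyclic and 4 in pregnant cows, where 13.2% and 17.7% of all probes did. CASP8 was higher in caruncular tissue by 1.09 in cyclic and 1.46 in pregnant cows, and TAB2 by 0.92 and 1.00. TRAF5 was higher by 0.64 in cyclic cows. CFLAR was higher by 0.73 and IKBKE lower by 0.60 in pregnant cows. EBI3, the partner of IL27, was higher by 0.69 in pregnant cows (adjusted p 8.81e-06). FADD differed with embryo size in intercaruncular tissue, by 0.74 (adjusted p 0.0215), where 3.7% of all probes passed.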
